A study of Mus musculus with 4 samples.

Results

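The genes described here are the matrix metalloproteases (Mmp), the ADAMTS proteases (Adamts), the ADAMTS-like proteins (Adamtsl) and the tissue inhibitors of metalloproteases (Timp) of the mouse, measured in fat cell cultures with and without normal Lgr4. They were chosen by gene symbol from the probe sets that the platform's annotation assigns to 1 gene only. Where several probe sets name a gene, the brightest by mean signal stands for it. This gave 42 of the 18194 genes on the array, with 78 probe sets: 18 Mmp, 15 Adamts, 5 Adamtsl and 4 Timp genes. Stromal vascular cells, which are the preadipocytes, immune cells and vascular cells left after fat cells are removed, came from epididymal white fat of male mice aged 4 months that were either wild-type or homozygous for an Lgr4 mutation. Both genotypes were grown with 10% serum and basic fibroblast growth factor (10 ng/ml) and then driven toward brown fat cells. The induction mix held dexamethasone (1 µM), isobutylmethylxanthine (0.5 mM), troglitazone (5 µM), T3 (50 nM) and insulin (5 µg/ml) for 48 h, and troglitazone, T3 and insulin were kept for 6 more days. Each genotype had 2 arrays, labelled biological replicates, and the labels do not describe the mutation further. The labels do not say whether the replicates of a genotype came from separate animals, so the p-values rest on the spread between arrays alone, and that spread may be technical.

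Matrix metalloproteases and ADAMTS proteases are zinc-dependent enzymes that cut collagens, proteoglycans and other proteins outside the cell. Most are made as inactive precursors, many of which are cleaved by furin-like convertases, and they are held in check by the TIMPs, which bind the active site. ADAMTS-like proteins resemble the ADAMTS proteases but lack the catalytic domain and sit in the matrix, several of them on fibrillin microfibrils. In fat, precursor cells remodel a fibrous collagen-rich matrix into a basement membrane as they fill with lipid, and the membrane-anchored protease encoded by Mmp14 is known to be needed for white fat to grow.

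Signals are log2 values from RMA, so a difference of 1 is a doubling. Lgr4 itself read 8.65 and 8.20 (wild-type) against 6.18 and 6.09 (mutant), a log2 difference of -2.29 (limma adjusted p = 1.45e-05). The mean of its 2 probe sets differed by -1.10, so the fall rested on the brighter probe set and the other showed none. Correlation over all probe sets was 0.9954 within the wild-type pair and 0.9977 within the mutant pair. Fat cell markers separated the genotypes: 7 of 7 tested were higher in the mutant, beside 11.1% of all genes tested. Of the 10 listed, Cfd and Plin1 were not analysed. Lep lay below the filter with overlapping pairs (means 4.58 in wild-type and 4.64 in mutant). The summed signal of the 8 analysed was 15.13 to 15.20 in wild-type and 16.62 to 16.64 in mutant cultures on the log2 scale. Of the 8 brown fat markers, 5 had a wild-type mean below the signal filter of 6.13 and 1, Cidea, had a mutant mean below it. Of the 6 tested, 4 were higher in the mutant and none lower, beside 11.1% of all genes tested called higher. Ucp1 and Elovl3, both among the 4, passed the filter through their mutant signal alone (wild-type means 5.43 and 6.07). The cultures also carried signals of other cells. All 10 macrophage markers lay above the filter in both genotypes, with 6 of 10 lower in the mutant, beside 18.7% of all genes tested, and a summed signal of 16.51 to 16.57 against 16.25 to 16.26. Of the stromal progenitor markers 3 of 7 were lower (13.70 to 13.93 against 13.10 to 13.18), and of the mural cell markers 4 of 7 were lower and 1 higher (14.64 to 14.72 against 14.06 to 14.25). Among those 4, Rgs5 passed the filter through its wild-type signal alone, with a mutant mean of 5.66 below it. Of the endothelial markers 1 of 6 tested was higher and 1 lower, the lower one being Vwf, which likewise passed the filter through wild-type alone (mutant mean 5.99). The summed mesothelial signal was 9.57 to 9.81 against 9.50 to 9.55. The part of these cell types in the results on proteases and inhibitors was not tested.

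Most of the proteases and inhibitors whose signal differed between genotypes were lower in the mutant cultures, and the largest difference was that of the inhibitor Timp3. A gene was tested if its mean over the 4 arrays exceeded a log2 signal of 6.13, the 40th percentile of all probe sets, and it was called at a Benjamini-Hochberg adjusted p under 0.05 in limma, adjusted over all 13173 genes tested. Of the 42 members, 34 passed this filter, 33 of them with both genotype means above it. Among the 34, 14 were lower in the mutant, 2 were higher and 18 did not pass the test. Over all genes tested, 29.8% were called, 18.7% lower and 11.1% higher; of the members tested, 41.2% were called lower and 5.88% higher. The median difference of the members tested was -0.28, beside -0.035 for all genes tested. On 25 of the 34 the 2 wild-type and 2 mutant values did not overlap, beside 68.8% of all genes tested. The mutant pair was below the wild-type pair on 18 of them and above it on 7, beside 39.9% and 28.9% of all genes tested. At least 2-fold lower were 2 members, Timp3 and Mmp3, beside 1.21% of all genes tested. These counts depended on single arrays. Without mutant replicate 1 there were 8 lower and 2 higher members, and without wild-type replicate 2 there were 16 and 6. A genotype left with 1 array is assumed to vary like the other pair. Replicates differed more in wild-type than in mutant cultures (median absolute difference 0.14 and 0.0726), so SEs rose without a mutant array. Higher genes made up 37.1% of all calls, and 48.5% with arrays centred on the median of the genes tested, which gave 13 lower and 2 higher members.

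**Figure D1:**
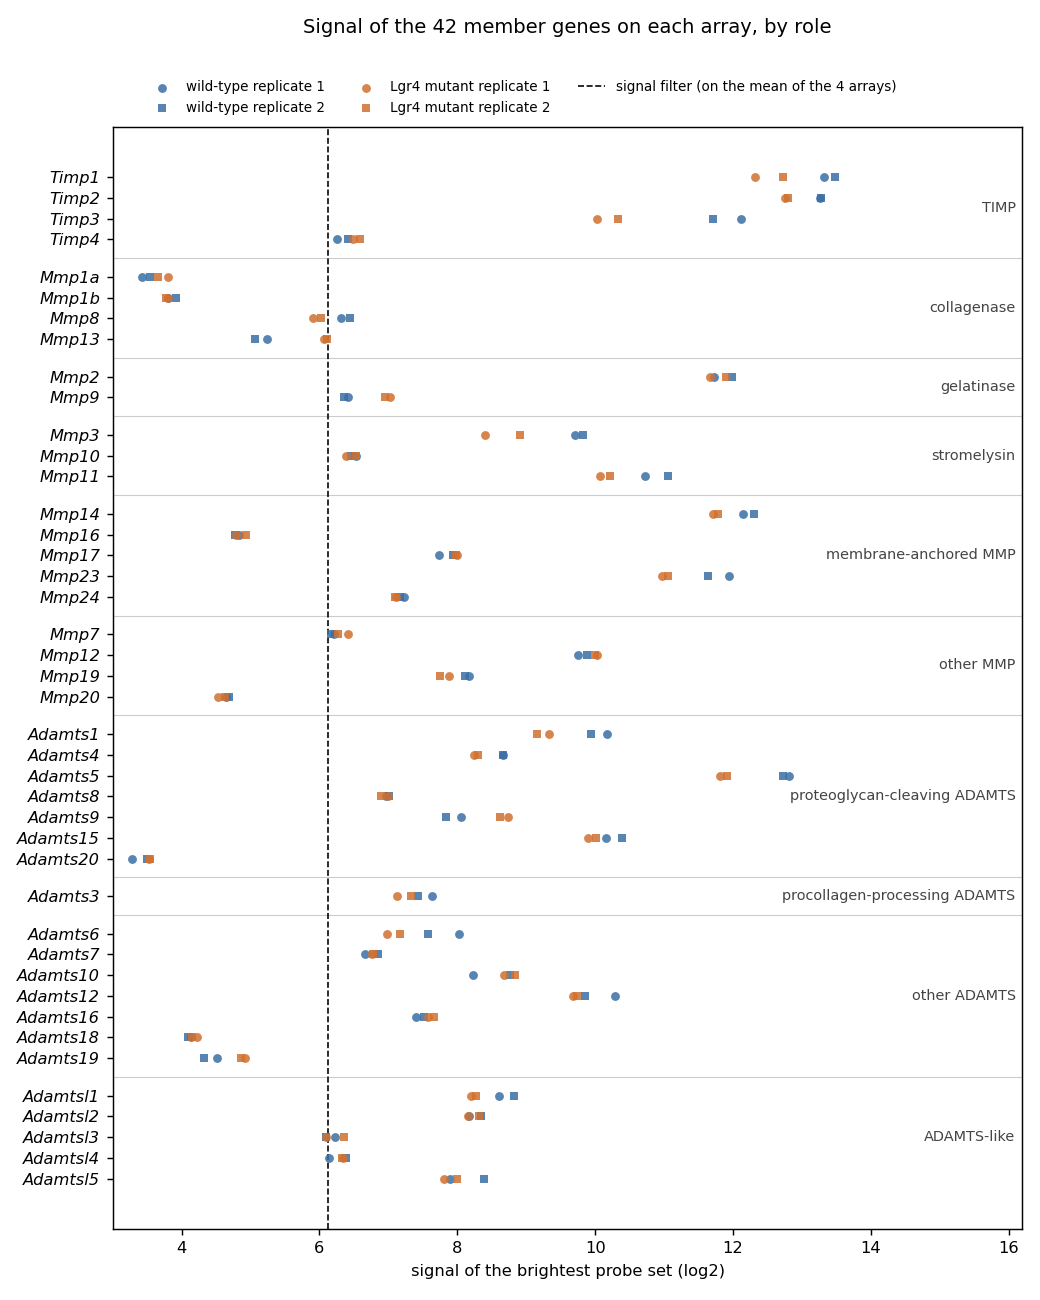
Log2 signal of the brightest probe set of each of the 42 genes (horizontal axis) on the 2 wild-type arrays (blue) and the 2 Lgr4 mutant arrays (orange), grouped by role, with the signal filter of 6.13 as a dashed line. Orange points lie left of blue points without overlap for Timp1, Timp2 and Timp3, and right of them for Mmp9 and Adamts9; signals of different genes come from different probes and are not compared.

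Of the 4 inhibitors 3 fell, beside 18.7% of all genes tested, and Timp4 did not pass. Timp3, which binds to the matrix and inhibits ADAMTS proteases and Adam17 as well as Mmps, read 12.11 and 11.71 (wild-type) against 10.03 and 10.33 (mutant). The pairs were far apart, and the 3.33-fold fall (log2 difference -1.73, SE 0.15, adjusted p = 1.06e-04) was larger than the spread within either genotype (SD 0.28 in wild-type and 0.21 in mutant, n = 2 each). Timp1, a soluble inhibitor, read 13.32 and 13.48 (wild-type) against 12.31 and 12.73 (mutant). It fell 1.84-fold (-0.88, SE 0.14, adjusted p = 0.00274), with an SD of 0.29 between the mutant arrays. Timp2, which both inhibits Mmps and helps Mmp14 to activate the Mmp2 precursor, read 13.27 on each wild-type array, with 12.76 and 12.80 for the mutant. Its fall was 1.41-fold (-0.49, SE 0.091, adjusted p = 0.00518), a call that ended without mutant replicate 1 (-0.47, SE 0.17, adjusted p = 0.0714). Timp4, at 6.25 and 6.41 (wild-type) against 6.48 and 6.59 (mutant), was close to the filter. The mutant pair was the higher one by 0.20, which did not pass (adjusted p = 0.166) except without wild-type replicate 2 (0.28, adjusted p = 0.0305). In RNA of a mixed culture, fewer cells of a type that makes a transcript and less of it in each cell cannot be told apart, which holds for every gene below. Beside the Timp falls stood the lower stromal, mural and macrophage marker sums given above, and their part was not tested. Such sums are set mainly by the brightest markers, such as Acta2 among the mural ones (wild-type mean 14.14). By single markers, the mutant pair lay below wild-type on 4 stromal, 5 mural and 10 macrophage markers, beside 39.9% of all genes tested. It lay above on 2 stromal, 2 mural and 0 macrophage markers, beside 28.9%.

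**Figure D2:**
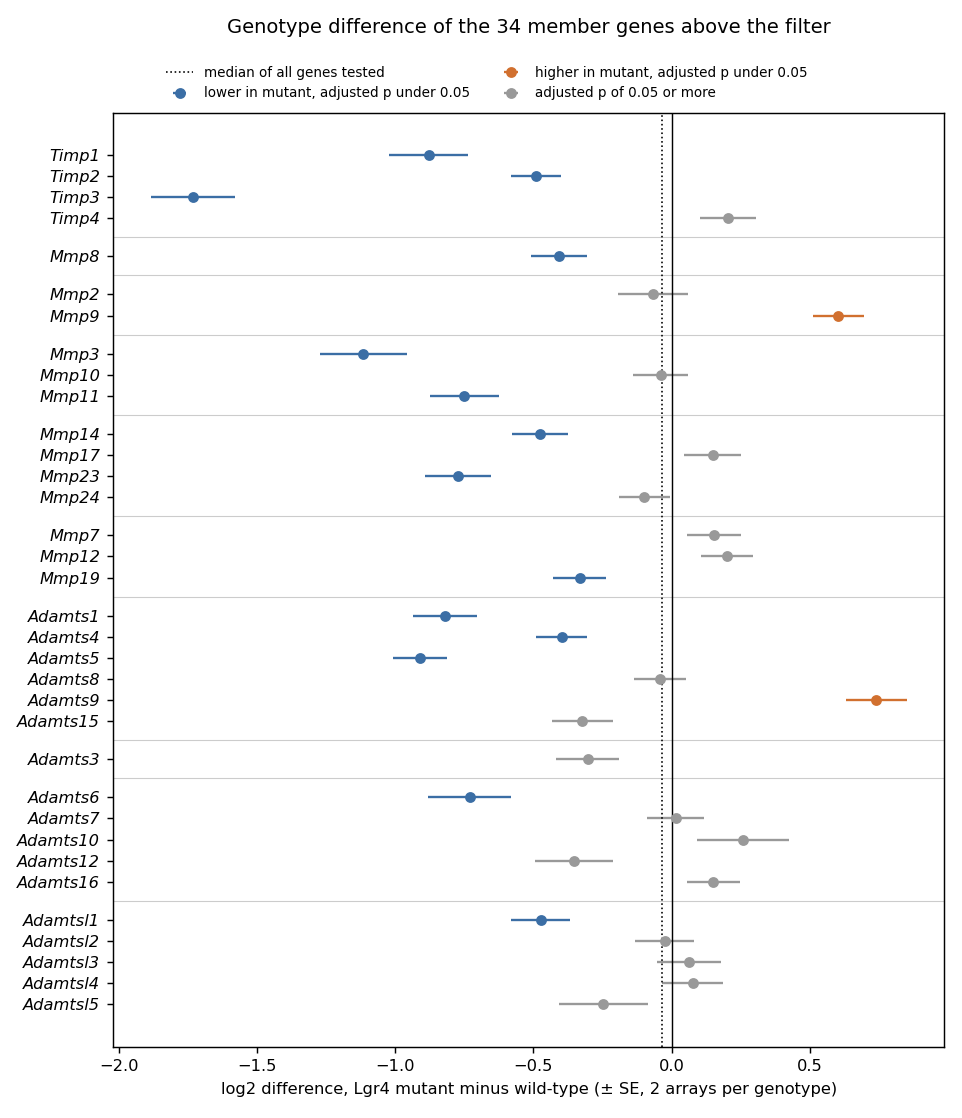
Log2 difference (Lgr4 mutant minus wild-type, 2 arrays each) of the 34 genes above the filter, with bars for the SE from limma, in blue where called lower, orange where called higher and grey otherwise. Timp3 lies farthest to the left at -1.73 and Adamts9 farthest to the right at 0.74, and the dotted line marks the median of all genes tested, -0.035.

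Secreted Mmps went in different directions. Mmp3 (stromelysin 1), which degrades many matrix proteins and activates other Mmp precursors, read 9.71 and 9.82 (wild-type) against 8.40 and 8.90 (mutant). It fell 2.17-fold (-1.12, SE 0.16, adjusted p = 0.00134), although the SD between its mutant arrays was 0.36. Mmp11 (stromelysin 3), which unlike most secreted Mmps is activated inside the cell by furin, read 10.73 and 11.06 against 10.07 and 10.21 and fell 1.68-fold (-0.75, SE 0.13, adjusted p = 0.00332). Mmp10 (stromelysin 2) showed no such difference: 6.53 and 6.45 against 6.38 and 6.53, with overlapping pairs (adjusted p = 0.798). So 2 of the 3 stromelysins fell, beside 18.7% of all genes tested.

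Of the gelatinases, which cut denatured collagen and basement membrane collagen, Mmp9 rose and Mmp2 did not pass the test. Mmp9 read 6.41 and 6.36 (wild-type) against 7.02 and 6.96 (mutant) and rose 1.52-fold (0.60, SE 0.093, adjusted p = 0.00214), both genotypes being close to the filter. Its second probe set, below the filter, differed by 0.19, and the mean of both was 0.40 (adjusted p = 0.0117). Mmp2 read 11.72 and 11.98 (wild-type) against 11.67 and 11.90 (mutant). Its pairs overlapped, and the difference of -0.067 (SE 0.13, adjusted p = 0.719) was smaller than the spread between replicates. Of the other secreted Mmps tested, Mmp19 fell from 8.18 and 8.12 to 7.88 and 7.75 (-0.33, SE 0.098, adjusted p = 0.0340). That call ended when either mutant array was left out (-0.40 with adjusted p = 0.136, and -0.27 with 0.353), under other scalings (0.0570 after a second quantile normalization and 0.0639 with arrays centred on the tested genes) and when its 2 probe sets were averaged (-0.20, adjusted p = 0.118). Mmp12, the macrophage elastase, read 9.75 and 9.87 (wild-type) against 10.03 and 10.00 (mutant). The 0.20 between the pairs did not pass (adjusted p = 0.149) except without wild-type replicate 2 (0.26, adjusted p = 0.0331), in cultures where 6 of 10 macrophage markers were lower. Mmp7 (matrilysin) differed by 0.15 (adjusted p = 0.268).

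The membrane-anchored Mmps held both called and uncalled members. Mmp14 (MT1-MMP), the main collagenase on the surface of mesenchymal cells and the activator of the Mmp2 precursor, read 12.14 and 12.30 (wild-type) against 11.71 and 11.78 (mutant). It fell 1.39-fold (-0.48, SE 0.10, adjusted p = 0.00916). Averaging its 3 probe sets ended the call (-0.40, adjusted p = 0.0516), and so did leaving out mutant replicate 1 (-0.44, SE 0.18, adjusted p = 0.0999). Mmp23, which is anchored by its N-terminal end, read 11.94 and 11.64 against 10.96 and 11.06 and fell 1.71-fold (-0.77, SE 0.12, adjusted p = 0.00214). Mmp17, which is held by a lipid anchor, differed by 0.15 (adjusted p = 0.309; 0.25 and adjusted p = 0.0381 without wild-type replicate 2) and Mmp24 by -0.099 (adjusted p = 0.450). The other Mmp24 probe sets differed in the opposite direction, by 0.17 (above the filter) and 0.076 (below it). Mmp16 lay below the filter in both genotypes. So 2 of the 4 tested fell, beside 18.7% of all genes tested, with the limits given for Mmp14.

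Of the 18 Mmp members, 9 are neighbours in the order of protein-coding genes in the RefSeq table (assembly GRCm38.p6): Mmp13, Mmp12, Mmp1b, Mmp3, Mmp1a, Mmp10, Mmp8, Mmp20 and Mmp7, with only Mmp27, not analysed here, between Mmp8 and Mmp20. Of these neighbours, Mmp3 and Mmp8 fell, Mmp12, Mmp10 and Mmp7 did not pass the test, and the other 4 lay below the filter. That is 2 lower of 5 tested, beside 18.7% of all genes tested. Of the 4 with both genotype means above the filter, 1, Mmp3, was called, and Mmp8 passed the filter through its wild-type signal alone. Mmp8, the collagenase of neutrophils, read 6.31 and 6.44 (wild-type) against 5.91 and 6.03 (mutant), a fall of 1.33-fold (-0.41, SE 0.10, adjusted p = 0.0177). Its mutant mean was below the filter, and the call ended when either mutant array was left out (-0.35 with adjusted p = 0.209, and -0.47 with 0.0693). Mmp13, the main interstitial collagenase of mouse, was below the filter in mean signal and is given from the same model run on all 18194 genes, of which 20.7% were called. It read 5.23 and 5.07 (wild-type) against 6.07 and 6.11 (mutant), a 1.92-fold rise at signals below the filter (0.94, SE 0.10, adjusted p = 3.30e-04).

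The promoters of the clustered genes are shown because Mmp3 and Mmp13, which hold the same short motif, differed in direction. That contrast rests on Mmp13, which lay below the filter. The other neighbours with the motif were not called. RefSeq promoter windows (GRCm38.p6; 300 bases, of which 250 lie before the start) were found for 27 of the 42 members, including all 9 clustered genes. The AP-1 motif TGACTCA, which reads TGAGTCA on the other strand, was searched on both strands and stood in 7 of the 30 member windows (23.3%), beside 5.20% of all 32851 windows. All 7 belong to clustered genes: Mmp13, Mmp12, Mmp1b, Mmp3, Mmp1a, Mmp10 and Mmp7. The sequences below are the 100 bases before the start, 5′ to 3′ on the gene's strand, with the AP-1 match and any TATAAA on that strand in capitals. Mmp8 and Mmp20 held no AP-1 match, and neither did a second window of Mmp12 and of Mmp7, which are not printed.
Mmp13 (chr9:7272414-7272513, plus strand): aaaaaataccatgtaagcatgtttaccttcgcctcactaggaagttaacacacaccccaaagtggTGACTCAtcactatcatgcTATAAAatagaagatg
Mmp12 (chr9:7347274-7347373, plus strand): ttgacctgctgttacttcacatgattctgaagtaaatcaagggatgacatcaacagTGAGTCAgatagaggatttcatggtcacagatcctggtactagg
Mmp1b (chr9:7388027-7388126, minus strand): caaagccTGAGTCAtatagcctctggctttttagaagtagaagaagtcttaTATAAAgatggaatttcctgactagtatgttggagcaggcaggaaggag
Mmp3 (chr9:7445722-7445821, plus strand): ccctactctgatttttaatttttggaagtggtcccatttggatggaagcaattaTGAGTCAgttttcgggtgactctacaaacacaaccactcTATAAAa
Mmp1a (chr9:7464041-7464140, plus strand): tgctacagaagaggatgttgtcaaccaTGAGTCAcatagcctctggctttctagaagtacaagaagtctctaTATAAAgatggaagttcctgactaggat
Mmp10 (chr9:7502242-7502341, plus strand): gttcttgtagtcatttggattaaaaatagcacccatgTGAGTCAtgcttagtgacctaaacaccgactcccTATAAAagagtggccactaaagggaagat
Mmp7 (chr9:7691990-7692089, plus strand): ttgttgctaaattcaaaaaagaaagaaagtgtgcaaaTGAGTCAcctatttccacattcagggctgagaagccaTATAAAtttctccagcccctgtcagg
Mmp8 (chr9:7558329-7558428, plus strand): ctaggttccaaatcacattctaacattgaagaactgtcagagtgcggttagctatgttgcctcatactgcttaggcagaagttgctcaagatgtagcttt
Mmp20 (chr9:7628131-7628230, plus strand): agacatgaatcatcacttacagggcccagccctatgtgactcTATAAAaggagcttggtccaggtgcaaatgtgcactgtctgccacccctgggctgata

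In these windows the AP-1 match began 46 bases before the start of Mmp3, which fell, and 35 bases before that of Mmp13, which rose in the model without the filter. In Mmp10 and Mmp7, which did not pass the test, it began 63 bases before the start in both, and in Mmp12 44 bases before. Mmp8 fell and had no match in its window. TATAAA on the gene's strand stood in 10 of the 30 member windows, beside 8.32% of all windows, and the TCF/LEF motif, searched on both strands as CTTTGAA and CTTTGAT, in 2 (6.67%, beside 8.65% of all windows), both of Mmp7. Those 2 windows overlap and share a single TCF/LEF site, which is counted in each. A match is a string of letters and not a shown site of binding. Windows of the clustered genes were poor in G and C, with a median of 40.4% over the 250 bases before the start in 11 windows, against 65.2% in the 19 windows of other members and 52.4% in all windows. The window of Timp3, the member with the largest fall, is shown for contrast, with 65.6% G and C and 18 CpG over its 250 bases and neither motif; it is printed on the next line over 100 bases.
Timp3 (chr10:86300312-86300411, plus strand): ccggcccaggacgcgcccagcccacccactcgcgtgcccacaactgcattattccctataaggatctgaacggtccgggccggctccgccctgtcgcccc

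ADAMTS proteases that cut proteoglycans such as aggrecan and versican included both falls and a rise. Adamts5, a major aggrecanase, read 12.82 and 12.73 (wild-type) against 11.81 and 11.92 (mutant). It fell 1.88-fold (-0.91, SE 0.097, adjusted p = 2.91e-04), with the genotypes well apart. Adamts1, its neighbour in gene order, read 10.18 and 9.94 against 9.33 and 9.15 and fell 1.77-fold (-0.82, SE 0.12, adjusted p = 0.00139). Adamts4, the other main aggrecanase, read 8.66 and 8.67 (wild-type) against 8.24 and 8.29 (mutant), a fall of 1.32-fold (-0.40, SE 0.092, adjusted p = 0.0135). Leaving out either mutant array ended that call (-0.37 with adjusted p = 0.173 for replicate 1, -0.43 with 0.101 for replicate 2), the SE being 0.17 in both cases.

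Adamts9, which cuts versican, was the member with the largest rise among those above the filter. It read 8.05 and 7.83 (wild-type) against 8.74 and 8.62 (mutant) and rose 1.67-fold (0.74, SE 0.11, adjusted p = 0.00172). The neighbours Adamts15 and Adamts8 did not pass. Adamts15 read 10.16 and 10.39 against 9.90 and 10.01 (-0.32, adjusted p = 0.0603), with no overlap between the pairs. It passed without wild-type replicate 1 (-0.44, adjusted p = 0.00686), with arrays centred on their medians (adjusted p = 0.0409) and with a variance trend (adjusted p = 0.0482). Adamts8 differed by -0.042 (adjusted p = 0.767). In all, 3 of 6 tested fell and 1 rose, beside 18.7% and 11.1% of all genes tested.

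Among the other ADAMTS proteases 1 of 5 tested fell, a share near the 18.7% of all genes tested. Adamts6, which acts on microfibril and cell junction proteins, read 8.03 and 7.58 (wild-type) against 6.97 and 7.17 (mutant), a 1.66-fold fall (-0.73, SE 0.15, adjusted p = 0.00832). Adamts10, a relative of Adamts6 linked to fibrillin microfibrils, read 8.23 and 8.77 (wild-type) against 8.68 and 8.83 (mutant). The SD of its wild-type arrays, 0.38, was wider than the difference between genotypes of 0.26 (adjusted p = 0.270); without wild-type replicate 2 the difference was 0.53 and passed (adjusted p = 0.00272). Adamts12 differed by -0.35 (adjusted p = 0.0931), Adamts16 by 0.15 (adjusted p = 0.273) and Adamts7 by 0.015 (adjusted p = 0.926). Adamts12 passed without wild-type replicate 2 (-0.57, adjusted p = 0.00101). Adamts3, which removes the N-terminal propeptide of procollagens and helps to activate the growth factor VEGF-C, read 7.63 and 7.43 against 7.12 and 7.33 (-0.30, adjusted p = 0.0805). It passed without wild-type replicate 2 (-0.40, adjusted p = 0.0151). Adamts2, the other well known procollagen N-proteinase, was not analysed here.

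Of the ADAMTS-like genes 1 of 5 tested fell, again a share near that of all genes tested. Adamtsl1 (punctin) read 8.61 and 8.82 (wild-type) against 8.21 and 8.27 (mutant) and fell 1.39-fold by its brightest probe set (-0.47, SE 0.11, adjusted p = 0.0121). Its other 2 probe sets differed by -0.84 and -1.04, and the mean of all 3 by -0.78. Leaving out either mutant array ended the call (-0.44 with adjusted p = 0.104 for replicate 1, -0.51 with 0.0503 for replicate 2). Adamtsl2, which binds fibrillin and a carrier of TGF-beta, read 8.17 and 8.35 against 8.16 and 8.31, with overlapping pairs (adjusted p = 0.881). Adamtsl4, a microfibril protein known from the fibres that hold the lens of the eye, differed by 0.077 (adjusted p = 0.630). Adamtsl3 differed by 0.063 (adjusted p = 0.713) and Adamtsl5 by -0.25 (adjusted p = 0.277). Adamtsl5 passed without wild-type replicate 1 (-0.50, adjusted p = 0.00695).

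The 8 members below the filter were Mmp1a, Mmp1b, Mmp13, Mmp16, Mmp20, Adamts18, Adamts19 and Adamts20. Apart from Mmp13, Adamts19 passed in the model on all genes, at 4.51 and 4.33 (wild-type) against 4.92 and 4.86 (mutant), higher by 0.47 (adjusted p = 0.0137). These signals are near the bottom of the range, and the call ended when either mutant array was left out (0.44 with adjusted p = 0.139, and 0.50 with 0.0815). The other 6 differed by -0.086 (Mmp20, an enzyme of tooth enamel) to 0.24 (Mmp1a) and did not pass.

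Several members are read by more than 1 probe set, which allows a check within the same arrays, though not an independent one. Of the 21 members with several probe sets, 16 had all of them on the same side of 0. Among the 11 called members with several, 10 did. The 4 Timp3 probe sets differed by -1.73 to -1.40, and all 4 separated the genotypes. The 4 Adamts5 probe sets ranged from -1.20 to -0.82 and the 3 Adamts9 probe sets from 0.36 to 0.76. The exception was Timp2: its 5 probe sets above the filter differed by -0.61 to -0.41, while the sixth, below the filter at a mean of 5.62, was higher by 0.29. The second Mmp19 probe set differed by only -0.077, and 1 of the 3 Mmp14 probe sets (-0.17) overlapped between genotypes.

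**Figure D3:**
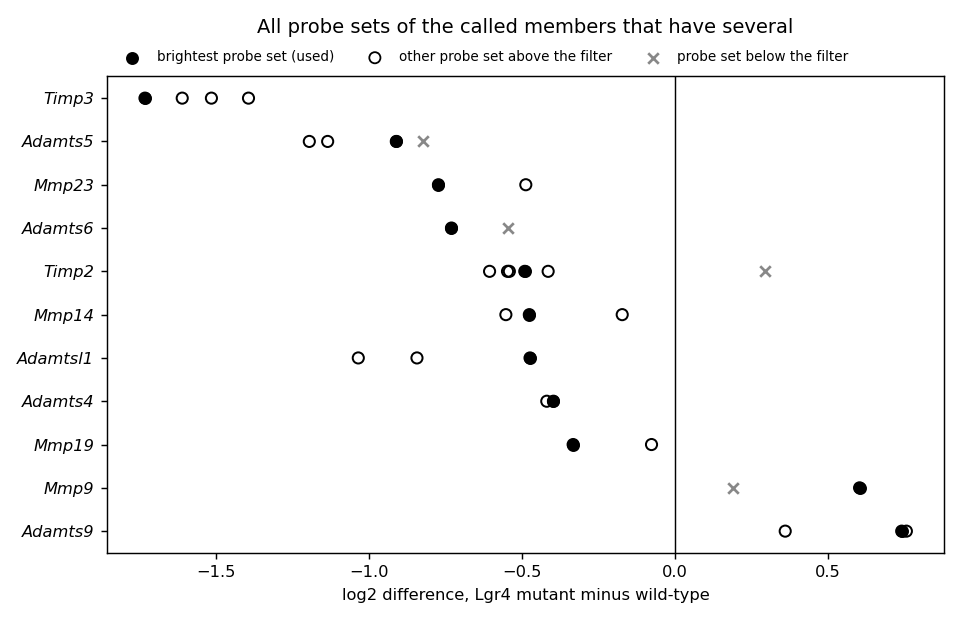
Log2 difference (Lgr4 mutant minus wild-type) of every probe set of the 11 called members that have several, with the brightest as a filled circle, others above the filter as open circles and those below it as crosses. Probe sets of Timp3 lie between -1.73 and -1.40, and the Timp2 probe set below the filter stands at 0.29, on the other side of 0 from its 5 companions.

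Genes that act with these proteases were read from a list of 45 activators, other inhibitors, related proteases and substrates. Of these, 42 were on the array and 36 were tested. The list was written with earlier results of these data known, so its shares describe the listed genes and are not a test. Col1a1 is counted both on this list and among the stromal progenitor markers. In the mutant 16 fell, 3 rose and 17 did not pass, so 44.4% were called lower and 8.33% higher, beside 18.7% and 11.1% of all genes tested, and the median difference was -0.24. Without mutant replicate 1 the counts were 10 lower and 3 higher, and without wild-type replicate 2 they were 18 and 7. Reck, a membrane-anchored inhibitor of Mmp2, Mmp9 and Mmp14, read 10.21 and 10.05 (wild-type) against 9.34 and 9.35 (mutant) and fell 1.72-fold (-0.78, SE 0.099, adjusted p = 7.47e-04). Of the convertases that activate precursors, Pcsk5 fell, from 11.42 and 11.30 to 10.28 and 10.44 (adjusted p = 2.55e-04), whereas Furin differed by -0.17 and did not pass (adjusted p = 0.218). The remaining convertase of the list, Pcsk6, also fell (-0.47, adjusted p = 0.00633), and was named after its values were seen. Its call ended when either mutant array was left out (-0.45 with adjusted p = 0.0887, and -0.49 with 0.0522). Bmp1, the procollagen C-proteinase, read 10.73 and 11.09 against 10.43 and 10.49 and fell by 0.45 (adjusted p = 0.0304). The mean of its 3 probe sets differed by only -0.092 (adjusted p = 0.648), and its call also ended without mutant replicate 1 (0.139), without mutant replicate 2 (0.0740) and under 2 of the other scalings (0.0560 and 0.0528).

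The largest fall on this list was that of Fbn2, a fibrillin of microfibrils (-2.17, adjusted p = 2.13e-06). Next after Pcsk5 came Ctsk, the collagen-degrading cathepsin K (-0.93, adjusted p = 2.03e-04), Cd44, a hyaluronan receptor that docks Mmp9 and Mmp14 (-0.87, adjusted p = 6.83e-04), and Adam19, a membrane-anchored sheddase (-0.82, adjusted p = 6.46e-04). Of the 3 that rose, Bsg encodes the Mmp inducer basigin (0.68, adjusted p = 0.0259). Bsg read 12.26 and 12.91 (wild-type) against 13.25 and 13.27 (mutant). Its SD was 0.46 between the wild-type arrays and 0.014 between the mutant arrays. The others were Adam12, a membrane-anchored protease of mesenchymal cells (0.67, adjusted p = 0.00659), and Eln, the gene of the matrix protein elastin (0.45, adjusted p = 0.0260). Averaging its 2 probe sets ended the Eln call (adjusted p = 0.0773), as did leaving out mutant replicate 2 (adjusted p = 0.189). Lrp1, the receptor that clears many Mmp and Timp complexes, read 11.93 and 12.35 (wild-type) against 12.13 and 12.18 (mutant), with the mutant arrays lying between the wild-type arrays (0.019, adjusted p = 0.930).

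The direction of every called member was kept in all alternatives run, but not its call. Of the 16 called members, 10 stayed past the threshold in each alternative that tested them: Timp1, Timp3, Mmp3, Mmp9, Mmp11, Mmp23, Adamts1, Adamts5, Adamts6 and Adamts9. Mmp9 lay below the stricter filter (7.30) and was not tested there, and neither was Mmp8. The Timp3 difference ran from -1.93 to -1.54, that of Mmp3 from -1.37 to -0.86 and that of Adamts9 from 0.62 to 0.85. The other 6, with differences under 0.5 in size, lost their call in at least 1 alternative.

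**Figure D4:**
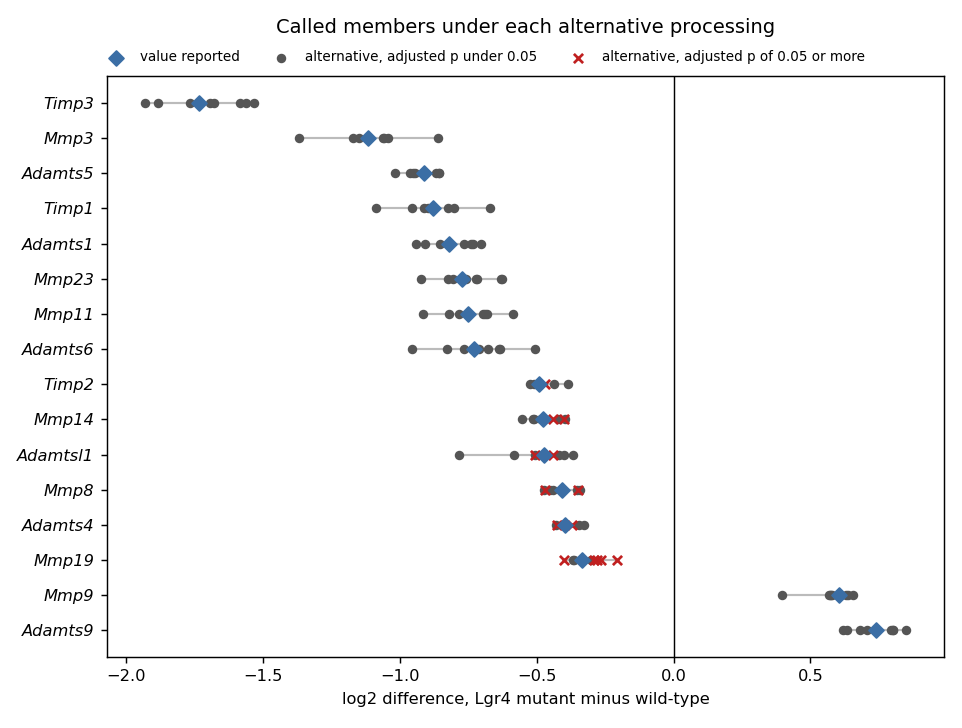
Log2 difference (Lgr4 mutant minus wild-type) of the 16 called members as reported (diamond) and under each alternative (points, or red crosses where the adjusted p was 0.05 or more); grey lines join the lowest and highest value. All points of a gene lie on the same side of 0, and crosses appear for Timp2, Mmp14, Adamtsl1, Mmp8, Adamts4 and Mmp19.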

How the data were processed

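The deposited table holds log2 signals of 45101 probe sets on 4 arrays, made by the authors with RMA in Partek 6.6, per the submitters' processing notes. RMA subtracts background, equalises the arrays' distributions and summarises probes, so it compresses differences near background and removes differences in total RNA. Its variant is not stated in the labels, and the values (2.86 to 15.2) showed the log2 scale. Probe sets annotated to 1 gene (34945) were kept; 64 controls, 932 naming several genes and 9160 naming none were left out. Genotypes were compared in limma 3.58.1 (R 4.3.3; lmFit and eBayes, 2-sided). The fit had 2 residual degrees of freedom plus 6.21 prior ones. It was also run on simulated data whose noise was drawn from the fitted model. That run checks the code and cannot show whether the model suits these arrays. Each ± or SD is over 2 arrays, and their number limits the precision. Members that passed the test are named with values, as are all Timp genes and a fixed set of well known members. The members and lists were chosen with earlier results of these data known.

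Alternatives covered the filter, the probe sets, scaling, the variance model, single arrays and the replicate number. Same-numbered arrays of the genotypes had deviations that correlated at 0.159, which with 2 pairs does not establish a pairing.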

Additional observations from a re-analysis of the deposited data

How the results depend on the processing

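No called member changed direction in any of the alternatives run. The number of members higher in the mutant was 2, and it was 4 without the filter and 1 with a filter at the 60th percentile. Leaving out 1 array at a time, 2 to 6 members were higher and 8 to 16 lower, 809 to 2627 genes were higher and 1042 to 3722 lower over all genes tested, and 2 to 7 of the partner genes were higher and 10 to 18 lower. The replicate block treats the shared replicate number as a pairing that the labels do not state. It gave 2 higher and 17 lower members, with no member's call lost and those of Adamts3, Adamts12 and Adamts15 gained. In that fit Lgr4, Adamts12 and Mmp14 had the same SE, 0.117. Its kept and gained calls therefore did not rest on each gene's own spread. Higher genes made up 37.1% of the calls over all genes and 48.5% when arrays were centred on the median of the tested genes, an alternative chosen after seeing the data, under which 2 members were higher and 13 lower. Signals near the filter, such as those of Mmp8, Mmp9 and Timp4, limit the size that a fold can show. By single arrays, probe sets or scaling, 6 of the 16 called members lost their call in at least 1 alternative that tested them, and 8 uncalled members above the filter gained one. Lgr4, Mmp8 and Mmp9 lay below the stricter filter and were not tested with it.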
